A study of Mus musculus with 29 samples.

Results

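A vector that drives REV-ERBα in hepatocytes was compared with a vector that drives green fluorescent protein (GFP), in the hearts of mice that carried C26 tumours. The comparison takes the 10 libraries labelled C26_REV-ERBa against the 10 labelled C26_GFP, which are 20 of the 29 libraries of the series, and covers every gene with enough counts. All animals were wildtype BALB/c mice, and each library came from the heart of 1 animal. Both vectors were adeno-associated viruses whose Tbg promoter works in hepatocytes, so the heart itself was not the tissue the vectors were built to express in. C26 is a mouse colon carcinoma line whose growth is used to model cachexia, in which the host loses muscle and fat. The 9 other hearts came from mice without a tumour, given saline (PBS) and the GFP vector (PBS_GFP, 4 hearts) or the REV-ERBα vector (PBS_REV-ERBa, 5 hearts). The labels state no age, sex, hour of collection or degree of wasting for any animal.

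REV-ERBα is a nuclear receptor of the circadian clock. It binds DNA elements shared with the activating ROR receptors and lowers transcription of clock, metabolic and inflammatory genes. The liver releases acute phase proteins, glucose, lipids and hormone carriers that reach the heart through the blood. In a tumour-bearing host the heart is exposed to inflammatory cytokines and glucocorticoids, and its muscle cells can lose mass and change their energy metabolism.

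The tumour-bearing libraries held 5684452 to 16853646 counts in C26_GFP and 3376113 to 7619837 in C26_REV-ERBa, and 3 libraries, all C26_GFP, held more than 10000000. Of 20411 genes in the table, 12928 were tested. Muscle genes of the ventricle dominated all hearts, and the summed level of 10 atrial markers varied widely. The highest heart had 4909 CPM (counts scaled to library size) in C26_GFP and 4148 CPM in C26_REV-ERBa, against group medians of 286 and 303. C26_REV-ERBa replicate 9 stood apart in markers of other tissues, with 821 CPM of summed adipocyte markers (next heart 341), 133 CPM of mesothelial markers (next 69.3) and 89.0 CPM of lung epithelial markers (next 2.16). The 5 lung markers did not move together. Sftpc had no count in any of the 20 hearts, and Sftpb, Sftpa1 and Scgb3a2 averaged under 1 CPM over them. C26_GFP replicates 10 and 7 had the highest summed T and NK cell markers, 15.2 and 14.2 CPM. Of the 10 markers summed, 1 was among the tested genes, and it made up most of both sums (log2 CPM 3.84 and 3.78). The others, Cd3d, Cd3g, Cd4, Cd8a, Nkg7, Gzma, Gzmb, Klrb1c and Ncr1, averaged under 1 CPM over the 20 hearts. Whether replicates 10 and 7 held more T or NK cells was not tested. Nr1d1, the mouse gene of REV-ERBα (chromosome 11, 98767932 to 98775377, minus strand, mm10), ranged from 74.7 to 204 CPM (median 139.7) in C26_GFP and from 103 to 232 CPM (median 165) in C26_REV-ERBa. The difference of 0.28 ± 0.16 did not pass (edgeR adjusted p = 0.288), and a hepatocyte vector is not checked by a heart library.

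At a Benjamini-Hochberg adjusted p under 0.05 in edgeR's quasi-likelihood test, 931 genes were called, which is 7.2% of those tested. Of these, 485 (3.75%) were higher and 446 (3.45%) lower in C26_REV-ERBa hearts. The count was 327 of 12349 tested when edgeR was fitted to the 20 tumour-bearing libraries alone, and 1772 by limma voom with sample weights. Most differences were small. The median size of the log2 difference among called genes was 0.33, against 0.10 over all tested genes, and 752 called genes (80.8%) differed by under 1.5-fold. Only 20 genes were higher and 34 lower by more than 2-fold. All differences below are log2(C26_REV-ERBa/C26_GFP) with a standard error, and levels are in CPM. The groups overlapped almost everywhere: 3 genes, 0.0232% of those tested, had no value in common, with Kit and Ipp above and Zfp335 below the C26_GFP range.

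**Figure D1:**
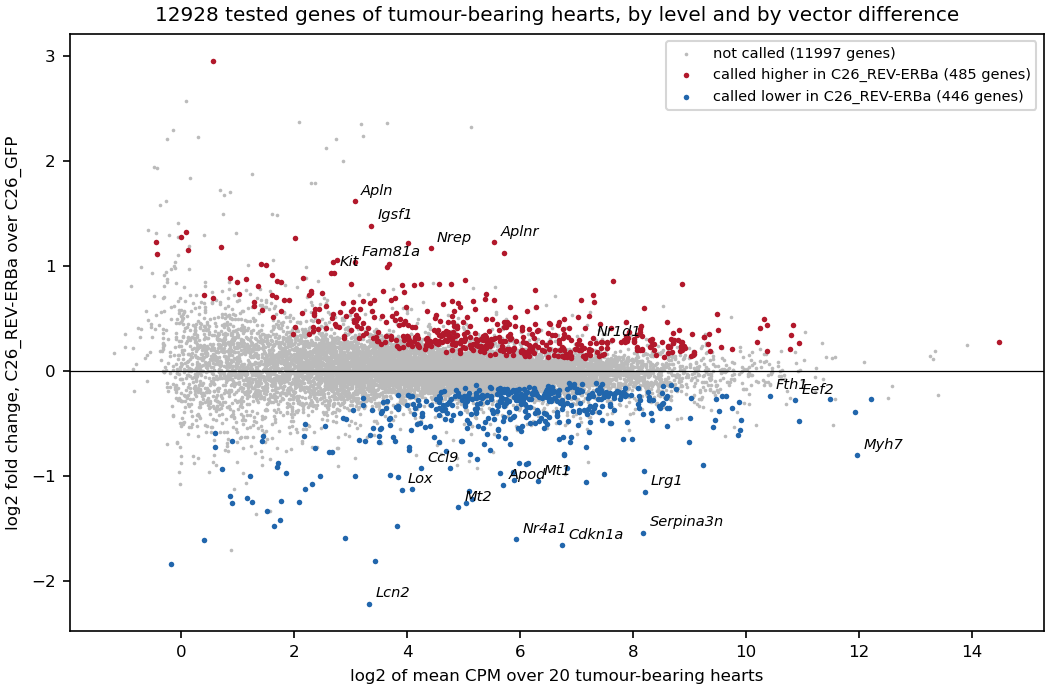
Each point is 1 of 12928 tested genes, with the log2 of its mean CPM over the 20 tumour-bearing hearts on the x axis and its log2 difference between the vectors on the y axis. The 485 genes called higher (red) and 446 called lower (blue) lie mostly within 1.5-fold of no difference, and Apln, Igsf1 and Aplnr (higher) and Lcn2, Cdkn1a and Nr4a1 (lower) are among those that reach farther.

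How firmly a call stood depended on single hearts. When each of the 20 hearts was left out in turn, the count of called genes ran from 295 to 1778. It was lowest without C26_REV-ERBa replicate 7 (295, of which 294 were among the 931), C26_GFP replicate 10 (335) and C26_GFP replicate 7 (397), and highest without C26_REV-ERBa replicate 9 (1778) and C26_GFP replicate 6 (1723). Leaving out C26_REV-ERBa replicates 1, 3, 4 or 10 gave 434, 572, 513 and 444, and leaving out C26_GFP replicates 1 or 2 gave 573 and 590. A set of 273 genes, 138 higher and 135 lower, was called in all 20 of these fits. Genes whose values are printed below belong to this set unless the number of the 20 fits in which they passed is given. Genes that only fill a count may be of either kind, and the number of that count that passed in all 20 fits stands beside it.

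**Figure D2:**
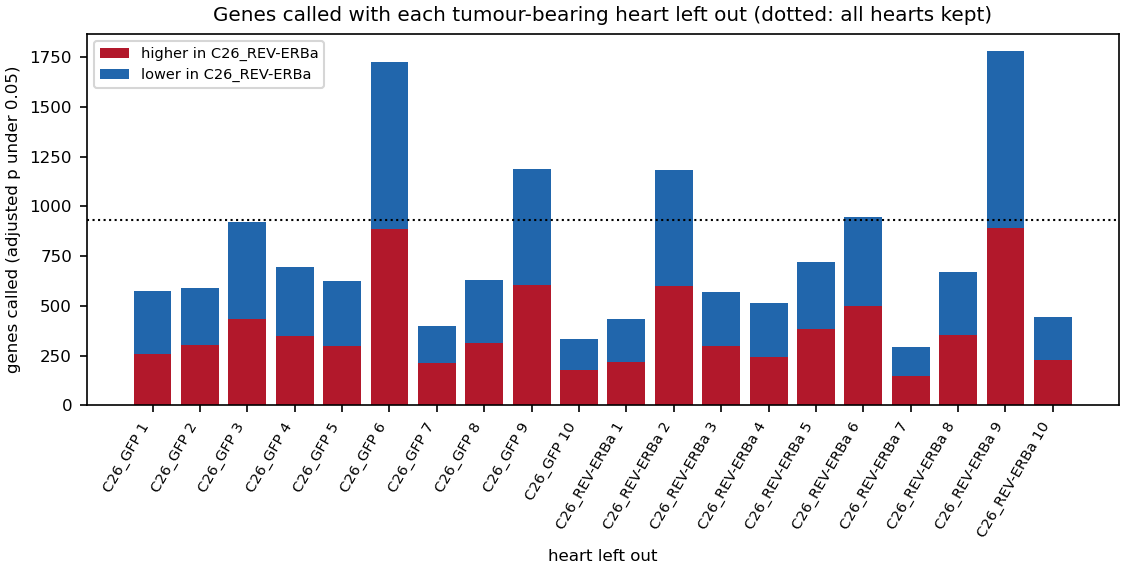
Bars give the number of genes called (y axis) when the heart named on the x axis was left out, split into genes higher (red) and lower (blue) in C26_REV-ERBa, with a dotted line at the 931 genes called with all hearts. The count falls to 295 without C26_REV-ERBa replicate 7 and rises to 1778 without C26_REV-ERBa replicate 9, and every bar holds genes of both directions.

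The largest rises included both members of the apelin pair. Apelin is a secreted peptide and its receptor, a G protein-coupled receptor of endothelial and muscle cells, supports vessel growth and cardiac contraction. Apln, the ligand (chromosome X, 48025146 to 48034852), ranged from 0.251 to 11.4 CPM (median 2.97) in C26_GFP and from 4.0 to 31.2 CPM (median 10.5) in C26_REV-ERBa, a log2 difference of 1.62 ± 0.38 (edgeR adjusted p = 0.0147). All 10 C26_REV-ERBa hearts lay above the C26_GFP median, and 5 lay above its highest heart. Aplnr, the receptor (chromosome 2, 85136360 to 85139923), ranged from 9.28 to 51.6 CPM (median 25.8) in C26_GFP and from 29.3 to 160.3 CPM (median 48.2) in C26_REV-ERBa, a difference of 1.23 ± 0.28 (edgeR adjusted p = 0.0143), again with 10 of 10 hearts above the C26_GFP median. In tumour-free hearts the mean level was 39.5 CPM of Apln and 133 CPM of Aplnr in PBS_GFP, and 40.6 and 167 CPM in PBS_REV-ERBa, above the medians of both tumour-bearing groups. Among 26 tested genes of apelin and angiogenic signalling, 4 were called higher (15.4%, against 7.2% of all tested genes) and none lower. The list's median of 0.02 was close to that of all genes (0.00). The other 2 were Nrp1, a co-receptor for vascular endothelial growth factor (0.23 ± 0.06, edgeR adjusted p = 0.0268, passing in 16 fits), and the chemokine receptor gene Cxcr4, which passed in 9. Without the 3 hearts that stood apart (C26_GFP 7 and 10, C26_REV-ERBa 9), 3 of the 26 were called higher.

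Kit, the receptor for stem cell factor (chromosome 5, 75574987 to 75656721), separated the groups fully. It ranged from 3.49 to 5.80 CPM (median 4.07) in C26_GFP and from 5.95 to 12.7 CPM (median 7.95) in C26_REV-ERBa, a difference of 0.94 ± 0.14 (edgeR adjusted p = 0.00136). Fam81a, a gene of little known function, had the smallest p: it ranged from 3.02 to 6.47 CPM (median 5.87) in C26_GFP and from 5.44 to 17.5 CPM (median 11.6) in C26_REV-ERBa, 1.04 ± 0.14 (edgeR adjusted p = 0.000494), and 9 of 10 C26_REV-ERBa hearts lay above every C26_GFP heart. The tenth, at 5.44 CPM, was the exception, and C26_GFP had a low heart of its own at 3.02 CPM. Igsf1, an immunoglobulin family membrane protein known from the pituitary, differed by 1.38 ± 0.27, Nrep, a neuronal regeneration-related protein gene, by 1.17 ± 0.24, the orphan receptor gene Mrgprh by 1.06 ± 0.21, and Ky, whose product supports the muscle Z-disc, by 0.86 ± 0.20 (edgeR adjusted p = 0.00843, 0.0104, 0.00843 and 0.0143). Nrep ranged from 4.73 to 22.4 CPM (median 12.4) in C26_GFP and from 11.4 to 48.5 CPM (median 27.9) in C26_REV-ERBa, and 7 of 10 hearts exceeded the C26_GFP maximum. Less stable members of the same group of large rises were Rtn4r, the Nogo receptor (1.22 ± 0.34, 13 fits), Itgb6, an integrin subunit (1.02 ± 0.29, 9 fits), Mdga1 (0.99 ± 0.26, 19 fits, not without C26_REV-ERBa replicate 7) and the muscle chloride channel gene Clcn1 (0.93 ± 0.24, 19 fits, not without the same heart). Ghr, the growth hormone receptor, showed a small but even difference of 0.30 ± 0.05 (edgeR adjusted p = 0.00655), with all 10 C26_REV-ERBa hearts above the C26_GFP median of 229 CPM.

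**Figure D3:**
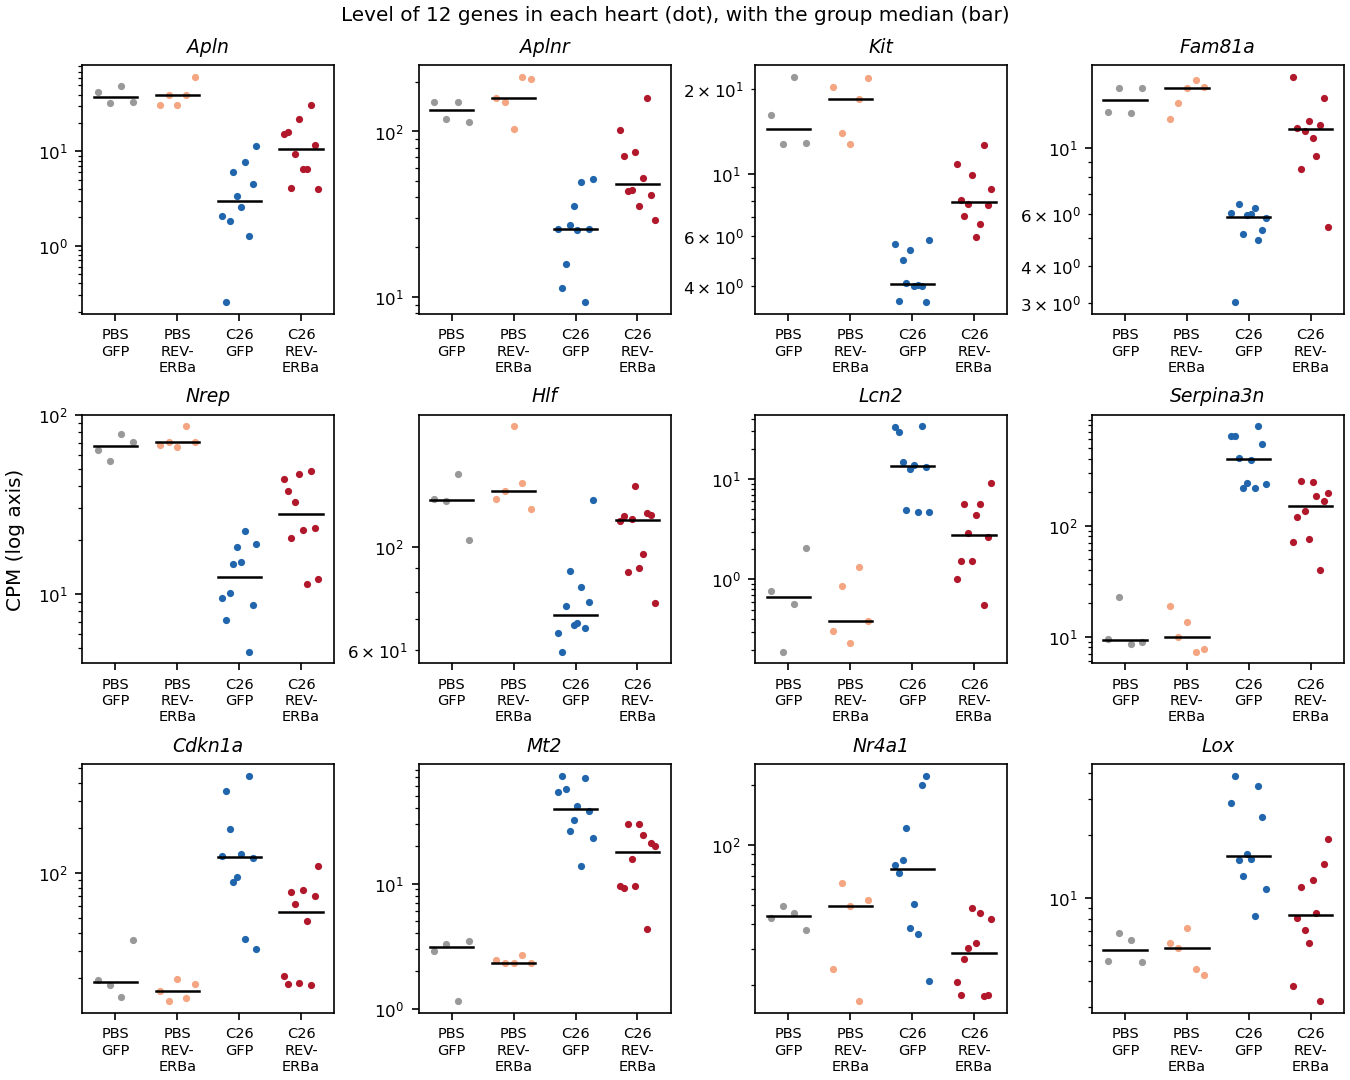
Each dot is 1 heart, with CPM on a log y axis and the 4 groups on the x axis, and bars mark group medians. Kit is the gene of the 12 whose tumour-bearing groups do not overlap, Apln, Aplnr, Fam81a, Nrep and Hlf are higher and Lcn2, Serpina3n, Cdkn1a, Mt2, Nr4a1 and Lox lower in C26_REV-ERBa than in C26_GFP.

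Of the acute phase genes that were called, all were lower. These are genes that interleukin-6 and the transcription factor STAT3 switch on in inflammation. Of 21 tested, 9 were called lower (42.9%) and none higher, and 20 of 21 had a difference below 0, with a median of -0.39. The 9 were Lrg1, Lcn2, Serpina3n, Stat3, Timp1, Cp, Osmr, Socs3 and Cebpb, the first 5 of which passed in all 20 fits. Lcn2, an iron-binding protein of inflammation (chromosome 2, 32384637 to 32387739), ranged from 4.65 to 33.8 CPM (median 13.5) in C26_GFP and from 0.557 to 9.12 CPM (median 2.77) in C26_REV-ERBa, a difference of -2.22 ± 0.41 (edgeR adjusted p = 0.00655). Serpina3n, a secreted protease inhibitor, ranged from 216 to 789 CPM (median 401) in C26_GFP and from 39.7 to 252 CPM (median 150.3) in C26_REV-ERBa, -1.54 ± 0.29 (edgeR adjusted p = 0.00655), so that 8 of 10 C26_REV-ERBa hearts lay below every C26_GFP heart. The C26_REV-ERBa medians of both genes stayed above the tumour-free level, where the PBS_GFP mean was 0.890 CPM of Lcn2 and 12.5 CPM of Serpina3n. Lrg1, a secreted glycoprotein that acts on vessels, ranged from 164 to 651 CPM (median 415) in C26_GFP and from 113 to 268 CPM (median 185) in C26_REV-ERBa, -1.15 ± 0.20 (edgeR adjusted p = 0.00566). With single hearts left out, 5 to 13 members were called lower, and 5 without the 3 hearts that stood apart. Lcn2, Serpina3n and other members of the list are abundant in liver, and the summed level of hepatocyte markers ran from 15.5 to 88.7 CPM in C26_GFP and from 3.62 to 216 CPM in C26_REV-ERBa. With that level as a covariate, 8 of the 21 were called lower.

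Called targets of the glucocorticoid receptor were lower as well, with 8 of 21 tested members called lower (38.1%), none higher and a median of -0.52. The 8 were Lcn2, which the acute phase list also holds, the metallothionein genes Mt1 and Mt2, Plin4, Cdkn1a, Fkbp5, Nfkbia and Ddit4, of which the last 3 passed in 15, 15 and 9 fits and the others in all 20. Fkbp5, a co-chaperone of the receptor that the hormone itself induces, was called, but Tsc22d3, Per1, Pdk4 and Angptl4 were among the 13 that were not. Cdkn1a, an inhibitor of cyclin-dependent kinases, ranged from 30.9 to 446 CPM (median 127) in C26_GFP and from 17.8 to 112 CPM (median 54.9) in C26_REV-ERBa, -1.66 ± 0.40 (edgeR adjusted p = 0.016). Plin4, a lipid droplet coat protein, ranged from 554 to 1439 CPM (median 1168) in C26_GFP and from 529 to 964 CPM (median 851) in C26_REV-ERBa, -0.56 ± 0.13 (edgeR adjusted p = 0.0131). The counts were 5 to 11 lower with single hearts left out and 5 without the 3 hearts that stood apart.

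Metallothioneins bind zinc and copper and are induced through metal response elements as well as by glucocorticoids. Mt2 ranged from 13.7 to 72.5 CPM (median 39.5) in C26_GFP and from 4.32 to 29.8 CPM (median 17.7) in C26_REV-ERBa, -1.30 ± 0.28 (edgeR adjusted p = 0.0117), and Mt1 ranged from 43.0 to 178 CPM (median 105) in C26_GFP and from 20.3 to 78.0 CPM (median 57.0) in C26_REV-ERBa, -1.05 ± 0.21 (edgeR adjusted p = 0.0099). In both genes all 10 C26_REV-ERBa hearts lay below the C26_GFP median and 4 below its lowest heart, while PBS_GFP means were 19.3 CPM of Mt1 and 2.71 CPM of Mt2. The neighbouring genes lie on chromosome 8, and their upstream sequences are shown because the pair moved together (RefSeq, GRCm38.p6, plus strand, the 250 bases before the annotated start, Mt1 at chr8:94178839-94179088 and Mt2 at chr8:94172368-94172617). Capitals mark matches to the core of the metal response element, TGCNCNC, on either strand.
Mt1: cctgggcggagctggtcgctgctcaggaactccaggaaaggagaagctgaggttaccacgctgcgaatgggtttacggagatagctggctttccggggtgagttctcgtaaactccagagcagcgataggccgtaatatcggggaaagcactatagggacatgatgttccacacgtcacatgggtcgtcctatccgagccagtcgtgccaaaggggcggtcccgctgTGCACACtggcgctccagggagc
Mt2: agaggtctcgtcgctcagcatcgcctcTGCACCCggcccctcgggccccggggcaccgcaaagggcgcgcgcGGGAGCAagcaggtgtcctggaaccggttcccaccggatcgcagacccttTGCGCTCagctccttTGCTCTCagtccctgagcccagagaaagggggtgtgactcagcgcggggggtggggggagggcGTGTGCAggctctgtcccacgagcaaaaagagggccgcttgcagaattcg
Mt1 held 1 match and Mt2 held 5 in this window. It ends at the annotated start, and matches outside it were not counted, so the numbers do not compare the whole promoters. The motif is short and loose: 44.4% of all 32851 promoters in the RefSeq table held it in the same window, as did 52.8% of 9854 tested genes with one, and 6 of 17 genes of iron, haem and metal handling with a promoter in the table (35.3%) did. In that list, 6 of 23 tested genes were called lower, Mt1, Mt2, the ferritin genes Fth1 and Ftl1, the mitochondrial iron carrier gene Slc25a28 and the zinc transporter gene Slc39a14, and 1 higher, Ireb2, the iron regulatory protein that represses ferritin translation. Mt1, Mt2 and Fth1 passed in all 20 fits. The share called in that list was 30.4%, against 7.2% of all tested genes. Fth1, the ferritin heavy chain, ranged from 1329.9 to 1725 CPM (median 1466) in C26_GFP and from 1109 to 1395 CPM (median 1272) in C26_REV-ERBa, -0.23 ± 0.05 (edgeR adjusted p = 0.0123), a small difference in which 8 of 10 hearts lay below the C26_GFP range.

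Immediate early and stress response genes, many of them transcription factors that cells switch on within minutes of a stimulus, all pointed the same way. All 24 tested members had a difference below 0, with a median of -0.52, and 6 were called lower (25%): Nr4a1, Maff, Atf3, Jund, Fos and Btg2, of which Nr4a1 and Maff passed in all 20 fits. Nr4a1, an orphan nuclear receptor, ranged from 20.9 to 222 CPM (median 76.1) in C26_GFP and from 17.6 to 48.2 CPM (median 28.7) in C26_REV-ERBa, -1.60 ± 0.33 (edgeR adjusted p = 0.0104). All 10 C26_REV-ERBa hearts were below the C26_GFP median, and the C26_REV-ERBa range was much the narrower. Fos ranged from 3.06 to 73.8 CPM (median 6.65) in C26_GFP and from 2.29 to 10.2 CPM (median 3.46) in C26_REV-ERBa, -1.81 ± 0.51 (edgeR adjusted p = 0.0329, 14 fits), and its medians lay closer together than its highest hearts. Atf3, a stress-induced repressor, differed by -1.48 ± 0.38 (edgeR adjusted p = 0.0227, 18 fits, not without C26_GFP replicate 10 or C26_REV-ERBa replicate 7), and Maff by -0.66 ± 0.14 (edgeR adjusted p = 0.0119). Jun, Junb, Egr1, Ier2 and Dusp1 were among the 18 that did not pass. The list's count of lower genes ran from 2 to 12 with single hearts left out, and was 5 without the 3 hearts that stood apart and 3 with the hepatocyte marker level as a covariate.

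Many of these genes are known to respond to cyclic AMP through the factor CREB, and the upstream sequences of Nr4a1 and Fos are shown with the core of its element, TGACG, in capitals on either strand (RefSeq, GRCm38.p6, 250 bases before the start, plus strand, Nr4a1 at chr15:101266596-101266845 and Fos at chr12:85473640-85473889).
Nr4a1: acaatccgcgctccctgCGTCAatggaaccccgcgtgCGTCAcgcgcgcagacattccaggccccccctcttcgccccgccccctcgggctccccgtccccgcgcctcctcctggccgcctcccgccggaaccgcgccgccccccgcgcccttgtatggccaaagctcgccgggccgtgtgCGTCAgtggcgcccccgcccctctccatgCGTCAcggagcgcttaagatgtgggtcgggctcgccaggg
Fos: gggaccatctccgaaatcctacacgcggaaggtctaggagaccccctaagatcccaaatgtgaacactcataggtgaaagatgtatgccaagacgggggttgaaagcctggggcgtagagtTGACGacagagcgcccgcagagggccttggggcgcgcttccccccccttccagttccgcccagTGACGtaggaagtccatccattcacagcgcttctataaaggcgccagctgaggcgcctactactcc
Nr4a1 held 4 matches and Fos held 2, of which the Fos match nearest the start lies at a site long known as its cyclic AMP response element. The core was found upstream of 11 of the 20 list members with a promoter in the table (55%), of 26.7% of 9854 tested genes with one and of 17.8% of all promoters.

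Clock genes differed in both directions by arm. Of 14 tested genes of the PER, REV-ERB and D-box arm, 4 were called higher (28.6%), none lower, and the median was 0.23. Hlf, a D-box binding activator, ranged from 59.3 to 126 CPM (median 71.4) in C26_GFP and from 75.7 to 135 CPM (median 114) in C26_REV-ERBa, 0.46 ± 0.11 (edgeR adjusted p = 0.0185), with 10 of 10 hearts above the C26_GFP median but only 1 above its highest heart. Dbp, another D-box activator, differed by 0.86 ± 0.24 (edgeR adjusted p = 0.0321, 12 fits), Per3 by 0.41 ± 0.11 (edgeR adjusted p = 0.0227, 19 fits, not without C26_REV-ERBa replicate 7) and Nr1d2, which encodes REV-ERBβ, by 0.28 ± 0.07 (edgeR adjusted p = 0.0215). Of 7 tested genes that REV-ERB proteins repress, 2 were called lower (28.6%, against 7.2% of all tested genes). Among them was Nfil3, a D-box repressor (-0.79 ± 0.20, edgeR adjusted p = 0.0215, 18 fits, not without C26_GFP replicate 10 or C26_REV-ERBa replicate 7). Arntl and Clock did not pass, nor did Npas2, with a difference of -0.59 ± 0.23 (edgeR adjusted p = 0.106). Without the 3 hearts that stood apart, 4 of 14 and 1 of 7 were called. Clock transcripts swing over the day, and the labels do not state the hour at which each heart was taken.

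The upstream sequence of Per3 is shown because it holds the D-box motif 2 times (RefSeq, GRCm38.p6, chr4:151044666-151044915, minus strand, 250 bases before the start, with TTATGNAA in capitals on either strand).
Per3: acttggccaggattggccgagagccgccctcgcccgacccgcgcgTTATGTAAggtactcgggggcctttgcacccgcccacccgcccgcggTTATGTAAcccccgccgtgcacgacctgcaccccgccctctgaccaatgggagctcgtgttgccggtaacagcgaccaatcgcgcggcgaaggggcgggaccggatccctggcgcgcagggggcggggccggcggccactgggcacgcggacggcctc
The D-box was found in 3.07% of all promoters in this window, in 1.78% of tested genes with one and in 2 of 11 list members with a promoter in the table, Per1 and Per3. Nfil3, called lower, held 1 match to AGGTCA, the core shared by ROR and REV-ERB elements, ending near its start. Nr1d2, called higher, also held 1 match, with its first base at -77 from the start. In the same window 14% of all promoters, 10.4% of tested genes with one and 1 of 6 members of the repressed arm had a match.

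Some muscle cell genes of calcium handling were higher, and none was called lower. Of 23 tested genes of calcium cycling and excitation coupling, 9 were called higher (39.1%) and none lower, 20 of 23 had a difference above 0, and the median was 0.16. The 9 were Camk2d, Trdn, Cacna2d1, Srl, Casq1, Casq2, Asph, Hrc and Slc8a1, which encode a calcium-dependent kinase, a channel subunit, the sodium-calcium exchanger and proteins that bind or organise calcium in the sarcoplasmic reticulum. The first 3 passed in all 20 fits, the others in 10 to 19. Camk2d ranged from 205 to 309 CPM (median 236) in C26_GFP and from 250.5 to 417 CPM (median 317) in C26_REV-ERBa, 0.37 ± 0.08 (edgeR adjusted p = 0.014). Cacna2d1 ranged from 266 to 312 CPM (median 291) in C26_GFP and from 260.4 to 361 CPM (median 351) in C26_REV-ERBa, 0.22 ± 0.06 (edgeR adjusted p = 0.0189): 9 hearts lay above every C26_GFP heart and 1 below all of them, so the groups were narrow apart from 1 library. Trdn, which encodes triadin, differed by 0.21 ± 0.05 (edgeR adjusted p = 0.0143). Single hearts moved the count between 3 (without C26_REV-ERBa replicate 7) and 13, and 8 were called without the 3 hearts that stood apart.

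Of 28 tested genes of sodium, potassium and pacemaker channels and connexins, 5 were called higher and 1 lower. The share called was 21.4%, against 7.2% of all tested genes. Kcne1, a potassium channel subunit, differed by 1.04 ± 0.23 and Kcnj2, an inward rectifier channel, by 0.45 ± 0.11 (edgeR adjusted p = 0.0131 and 0.0203), whereas the related channel gene Kcnj12 was lower, with a difference of -0.23 ± 0.06 (edgeR adjusted p = 0.024, 18 fits, not without C26_GFP 7 or C26_REV-ERBa 7). Hcn4 and Scn4b were also called higher, in 5 and 4 fits. Akap5, a scaffold that ties protein kinase A to the membrane, ranged from 1.26 to 3.49 CPM (median 2.42) in C26_GFP and from 2.27 to 14.4 CPM (median 5.34) in C26_REV-ERBa, 1.27 ± 0.26 (edgeR adjusted p = 0.0102), with 7 hearts above the C26_GFP maximum. In the list of 28 adrenergic and cyclic AMP genes that holds it, Akap6 was also called higher and Adcy6 and Arrb1 lower, each in 8 fits. The share called in that list was 14.3%.

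Genes of the contractile apparatus split. Myh7, the slow myosin heavy chain that fetal and stressed ventricles use, ranged from 3007 to 7485 CPM (median 4428) in C26_GFP and from 2322 to 5317 CPM (median 2521) in C26_REV-ERBa, -0.80 ± 0.16 (edgeR adjusted p = 0.00843), and its PBS_GFP mean was 2296 CPM. Myh6, the fast myosin of the adult mouse heart, was called higher in 6 fits. Tpm1, a tropomyosin, ranged from 1366 to 1733 CPM (median 1555) in C26_GFP and from 1270.1 to 2692 CPM (median 2191) in C26_REV-ERBa, 0.43 ± 0.09 (edgeR adjusted p = 0.0099): 8 hearts lay above the C26_GFP maximum and 1 below its minimum. Des, the intermediate filament desmin, was lower, -0.39 ± 0.08 (edgeR adjusted p = 0.0104), with all 10 hearts below the C26_GFP median of 4345 CPM. In the list of 18 fetal and stress genes, 2 were called higher (Fhl2, Myh6) and 3 lower (Myh7, Fhl1, Xirp1), of which Myh7 passed in all 20 fits, and the median was -0.27. Of 25 sarcomere genes, 2 were higher (Tpm1, Myh6) and 2 lower, among them Myom2, which passed in 7 fits. The share called was 27.8% of the fetal and stress genes and 16% of the sarcomere genes, against 7.2% of all tested genes.

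Some mitochondrial genes were higher, by small amounts, and most did not pass the test. Of 28 tested genes of the TCA cycle and pyruvate dehydrogenase, 9 were called higher (32.1%) and 1 lower, and the median was 0.15. Dld, the shared dehydrogenase subunit of the pyruvate and oxoglutarate complexes, ranged from 215 to 253 CPM (median 231) in C26_GFP and from 224 to 340.2 CPM (median 282) in C26_REV-ERBa, 0.28 ± 0.05 (edgeR adjusted p = 0.00655), with 9 of 10 hearts above the C26_GFP range. Idh3a, of the TCA cycle itself, differed by 0.23 ± 0.05, and Pdp1, the phosphatase that activates pyruvate dehydrogenase, by 0.39 ± 0.09 (edgeR adjusted p = 0.015 and 0.015). The 1 lower member was Idh2, in 7 fits, and Dld, Pdp1, Idh3a and Pdhb passed in all 20. With single hearts left out the higher count ran from 4 (without C26_REV-ERBa replicate 7) to 14, and it was 13 without the 3 hearts that stood apart.

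Ketone and branched-chain amino acid catabolism had 5 of 21 members higher (23.8%) and none lower, with 2 in all 20 fits. Oxct1, the enzyme that lets tissues burn ketone bodies, ranged from 762 to 1478 CPM (median 1029) in C26_GFP and from 831 to 1848 CPM (median 1539) in C26_REV-ERBa, 0.49 ± 0.12 (edgeR adjusted p = 0.015), and Ppm1k, the phosphatase that activates the branched-chain dehydrogenase, differed by 0.35 ± 0.08 (edgeR adjusted p = 0.0126). Respiratory chain genes mostly had small differences above 0. In complexes I and II this held for 37 of 41 tested genes. Of the 41, 2 were called higher and 1, Ndufa7, lower (7.32%, close to the 7.2% of all tested genes). In complexes III to V with cytochrome c, 4 of 35 were called higher (11.4%), led by Cycs, cytochrome c itself (0.34 ± 0.08, edgeR adjusted p = 0.0174). The medians of these lists were 0.07 and 0.03, and 1 gene of each, Ndufa7 and Cycs, passed in all 20 fits. Higher counts ran from 0 to 8 in complexes I and II and from 1 to 7 in the others with single hearts left out, and were 6 in each without the 3 hearts that stood apart. Of 30 genes of mitochondrial biogenesis and dynamics 6 were higher, among them Dnm1l, Opa1 and Tfam, and 1, Phb2, lower. Dnm1l passed in all 20 fits, and the share called in that list was 23.3%.

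The share called was 3.33% in fatty acid genes, 16.7% in the lipid droplet list and 22.2% in glycolysis, against 7.2% of all tested genes. Of 30 tested genes of fatty acid uptake and β-oxidation, none was called higher and 1 lower, Acot1, an acyl-CoA thioesterase (-0.92 ± 0.28, edgeR adjusted p = 0.0451, 6 fits), and 23 had a difference below 0. In the lipid droplet list of 30, Plin4, Pnpla2 and Scd3 were called lower and Srebf1 and Abhd5 higher, and Plin4 passed in all 20 fits. Summed adipocyte markers ran from 167 to 307 CPM in C26_GFP and from 226 to 821 CPM in C26_REV-ERBa, and their part in these counts was not tested. Without the 3 hearts that stood apart, the list had none called higher and 1 lower. In glycolysis, 4 of 27 were higher, Pfkfb1, Pkm, Eno3 and Pgk1, and 2 lower, Gys1 and the lactate carrier gene Slc16a3, and Pfkfb1 passed in all 20 fits. Pfkfb1, which sets the level of a glycolytic activator, differed by 0.75 ± 0.19 (edgeR adjusted p = 0.0205).

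A few genes of the cytosolic protein synthesis machinery were called lower and a few of the mitochondrial ribosome higher. Among 49 tested cytosolic ribosomal protein genes, 47 had a difference below 0 and the median was -0.16. Of the 49, 5 were called lower (10.2%, close to the 7.2% of all tested genes) and none higher, with 2 in all 20 fits. Rps24 ranged from 86.8 to 111 CPM (median 98.1) in C26_GFP and from 66.5 to 92.7 CPM (median 83.7) in C26_REV-ERBa, -0.23 ± 0.05 (edgeR adjusted p = 0.0143). Among 44 mitochondrial ribosomal protein genes, 6 were called higher (13.6%), none lower, with Mrpl16 leading at 0.32 ± 0.06 (edgeR adjusted p = 0.00973) and 9 of 10 hearts above the C26_GFP range, and it alone passed in all 20 fits. With single hearts left out the mitochondrial count ran from 1 (without C26_GFP replicate 10 or C26_REV-ERBa replicate 1, 4 or 7) to 12, and it was 4 without the 3 hearts that stood apart. Of 30 translation factors 5 were lower (16.7%) and none higher, with 3 in all 20 fits. Eef2, the elongation factor that moves the ribosome, ranged from 1679 to 2399.5 CPM (median 2011) in C26_GFP and from 1425 to 2023 CPM (median 1652) in C26_REV-ERBa, -0.28 ± 0.06 (edgeR adjusted p = 0.013), and Eif3c differed by -0.24 ± 0.05 and Eif4ebp1, a brake on initiation, by -0.51 ± 0.13 (edgeR adjusted p = 0.0131 and 0.0185). Many ribosomal protein genes have near-identical processed copies, and counting can split their reads. Without the hearts of highest atrial level (3 of each tumour-bearing group and 1 of each other group), 15 cytosolic ribosomal protein genes were called lower, and 2 to 18 with single hearts left out.

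Called genes of the endoplasmic reticulum and of amino acid stress were all lower. They were 16% and 18.5% of tested members, against 7.2% of all tested genes. Of 25 chaperones and unfolded protein response genes, 24 had a difference below 0 (median -0.18) and 4 were called lower, P4hb, Atf6, Xbp1 and Sdf2l1, in 20, 11, 10 and 5 fits. P4hb, protein disulphide isomerase, differed by -0.24 ± 0.06 (edgeR adjusted p = 0.0173). Of 27 ATF4 and amino acid stress genes, 5 were called lower and none higher, with 2 in all 20 fits. Slc3a2, the heavy chain of large amino acid transporters, ranged from 79.9 to 145 CPM (median 98.8) in C26_GFP and from 53.5 to 94.4 CPM (median 75.1) in C26_REV-ERBa, -0.51 ± 0.10 (edgeR adjusted p = 0.00973), and Gdf15, a stress hormone that curbs appetite, ranged from 5.20 to 17.9 CPM (median 11.3) in C26_GFP and from 2.29 to 9.08 CPM (median 5.29) in C26_REV-ERBa, -1.0 ± 0.26 (edgeR adjusted p = 0.0227). All 10 C26_REV-ERBa hearts were below the C26_GFP median in both. With single hearts left out, 1 to 10 of the 25 and 2 to 8 of the 27 were called lower, and without the 3 hearts that stood apart 5 of each. Cytosolic heat shock protein genes had no call among 32 tested. That count of 0 depended on single hearts, since up to 7 were called higher and up to 8 lower with 1 heart left out, and 1 higher and 4 lower without the 3 hearts that stood apart.

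Several matrix genes were lower, and no collagen gene passed the test. Of 32 genes of matrix remodelling and crosslinking, 7 were called lower (21.9%), none higher: Lox, Timp1, Mmp14, Adamts4, Mmp2, Adamts1 and Eln, of which the first 3 passed in all 20 fits and the others in 6 to 12. Lox, which crosslinks collagen and elastin, ranged from 8.21 to 38.7 CPM (median 15.9) in C26_GFP and from 3.21 to 19.2 CPM (median 8.30) in C26_REV-ERBa, -1.13 ± 0.27 (edgeR adjusted p = 0.0168). Mmp14, a membrane metalloprotease, differed by -0.53 ± 0.13, and Timp1, an inhibitor of such proteases, by -1.34 ± 0.33 from a median of only 3.16 CPM (edgeR adjusted p = 0.0199 and 0.0186). None of 18 tested collagen genes passed, and the smallest adjusted p belonged to Col4a3 and Col8a1 (both 0.104). With single hearts left out, up to 2 collagen genes were called higher and up to 1 lower. Tgfbr2, a receptor subunit for TGF-β, ranged from 212 to 379 CPM (median 247) in C26_GFP and from 146 to 255 CPM (median 202) in C26_REV-ERBa, -0.48 ± 0.10 (edgeR adjusted p = 0.0106). It was 1 of 3 called lower among 29 genes of that pathway, with Gdf15 and Bmp6, the last in 9 fits. Those 3 were 10.3% of that list, close to the 7.2% of all tested genes. Emilin1, an elastic fibre protein, was lower in 9 of 10 hearts than in any C26_GFP heart (-0.38 ± 0.07, edgeR adjusted p = 0.00639), and the secreted protease gene Htra3 differed by -0.52 ± 0.10 (edgeR adjusted p = 0.00655). Without the 3 hearts that stood apart, 3 of the 32 were lower and 1 higher. In bulk tissue, fewer cells of a type and less RNA per cell cannot be told apart, and of 10 fibroblast markers 1, Pdgfra, was called lower, in 11 fits.

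Immune gene lists differed in the share called. It was 20% of chemokine and cytokine genes, 12.5% of complement and coagulation genes and 11.5% of NF-kB genes. In interferon and antigen presentation genes it was 0%, against 7.2% of all tested genes. Ccl9 and Ccl6, chemokines of myeloid cells, were lower: Ccl9 ranged from 16.3 to 34.8 CPM (median 24.8) in C26_GFP and from 8.16 to 18.7 CPM (median 13.7) in C26_REV-ERBa, -0.92 ± 0.14 (edgeR adjusted p = 0.00136), and Ccl6 ranged from 26.8 to 47.5 CPM (median 35.1) in C26_GFP and from 9.48 to 32.0 CPM (median 17.2) in C26_REV-ERBa, -0.92 ± 0.19 (edgeR adjusted p = 0.00973), and in each 8 of 10 C26_REV-ERBa hearts lay below every C26_GFP heart. Both also had negative, uncalled differences without a tumour, -0.70 ± 0.27 and -0.69 ± 0.37. Cxcl14 was also called lower and Il16 higher among 20 chemokine and cytokine genes, in 18 and 19 fits. C1qa and C1qb, subunits of the first complement component, were lower, with differences of -0.29 ± 0.08 and -0.27 ± 0.07 (edgeR adjusted p = 0.0281 and 0.0281, 18 and 17 fits, neither without C26_REV-ERBa 1 or 7, nor C1qb without C26_GFP 10). With Serping1, the C1 inhibitor, in 14 fits, they were the 3 called lower among 24 complement and coagulation genes, none of which was called higher. With single hearts left out, 0 (without C26_REV-ERBa replicate 1 or 7) to 6 of these were called lower, and 2 without the 3 hearts that stood apart. Summed macrophage markers ran from 391 to 563 CPM in C26_GFP and from 337 to 461 CPM in C26_REV-ERBa, and 3 of 12 were called lower, C1qa, C1qb and Lyve1. Cd63, a tetraspanin of lysosomes and exosomes, ranged from 45.4 to 63.7 CPM (median 54.3) in C26_GFP and from 29.4 to 51.1 CPM (median 39.1) in C26_REV-ERBa, -0.46 ± 0.08 (edgeR adjusted p = 0.0044), with 9 of 10 hearts below the C26_GFP range. Interferon and antigen presentation genes had no call among 31, although 26 had a difference above 0 (median 0.16). Oasl2 came closest, at 0.50 ± 0.16 (edgeR adjusted p = 0.0537). That count of 0 depended on single hearts, since up to 6 were called higher with 1 heart left out. Without the hearts of highest atrial level 2 were called higher, and without the 3 hearts that stood apart 0. Of 26 NF-kB pathway genes 3 were lower, Nfkbia, Myd88 and Tnfrsf12a, in 15, 10 and 4 of the fits, and Icam1, an adhesion molecule that NF-kB induces, differed by -0.40 ± 0.09 (edgeR adjusted p = 0.0143).

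Protein breakdown genes, which the wasting of muscle is known for, had some calls. The share called was 12.5% of ubiquitin ligases and FOXO targets, 5.88% of proteasome subunits and 15.4% of autophagy genes, against 7.2% of all tested genes. Of 24 ubiquitin ligases and FOXO targets 3 were called lower, Trim54, Fbxo31 and Ubb, in 20, 17 and 19 fits, none higher, and the median was 0.00. Trim54, a sarcomere-bound ligase, ranged from 333 to 549 CPM (median 453) in C26_GFP and from 287 to 432 CPM (median 342) in C26_REV-ERBa, -0.36 ± 0.09 (edgeR adjusted p = 0.0165). Of 34 proteasome subunits 2 were lower, and of 26 autophagy genes 3 were lower, Map1lc3b, Atg13 and Bnip3, and 1 higher, Atg5, and none of these passed in all 20 fits. Among 28 insulin, IGF and mTOR genes 3 were lower (10.7%). Irs2, an insulin receptor substrate, ranged from 26.1 to 164 CPM (median 56.5) in C26_GFP and from 24.7 to 53.7 CPM (median 33.6) in C26_REV-ERBa, -0.97 ± 0.25 (edgeR adjusted p = 0.0227, 18 fits, not without C26_GFP 7 or C26_REV-ERBa 7). Among 18 growth arrest and p53 targets, Cdkn1a and Btg2 were lower and Ccng1, Eda2r and Gadd45a higher (27.8%), with Ccng1 and Cdkn1a in all 20 fits. Ccng1, cyclin G, ranged from 877 to 1488 CPM (median 1102) in C26_GFP and from 1018 to 1830.0 CPM (median 1577) in C26_REV-ERBa, 0.44 ± 0.09 (edgeR adjusted p = 0.0104), the opposite direction to Cdkn1a although p53 is known to induce both. None of 18 cell cycle genes passed, and up to 1 was called higher with single hearts left out.

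Several other genes with large falls stood mostly outside these lists. Sema5a, an axon guidance molecule, differed by -1.22 ± 0.27, Tcf23, a helix-loop-helix factor, by -1.15 ± 0.26, Syt12, a synaptotagmin, by -1.13 ± 0.25, and Apod, a lipid-binding apolipoprotein, by -1.09 ± 0.27 (edgeR adjusted p = 0.0123, 0.0143, 0.0131 and 0.0176). Scd3, a stearoyl-CoA desaturase, and Fam107a, a stress-responsive actin-binding protein, differed by -1.59 ± 0.46 and -1.26 ± 0.37 and passed in 12 fits each (edgeR adjusted p = 0.0378 and 0.0371). Tcf23 ranged from 13.1 to 84.0 CPM (median 48.0) in C26_GFP and from 8.50 to 36.8 CPM (median 24.1) in C26_REV-ERBa, and all 10 C26_REV-ERBa hearts were below the C26_GFP median. Syt12 ranged from 9.99 to 49.7 CPM (median 22.6) in C26_GFP and from 5.58 to 18.9 CPM (median 8.77) in C26_REV-ERBa, with 6 hearts below the C26_GFP range. Their PBS_GFP means were 6.90 and 5.90 CPM. Acta2, smooth muscle actin, was higher by 1.13 ± 0.34 but passed in 7 of the fits (edgeR adjusted p = 0.0428), and the summed level of vascular smooth muscle markers, which include it, ran from 235 to 557 CPM in C26_GFP and from 268 to 699 CPM in C26_REV-ERBa.

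**Figure D4:**
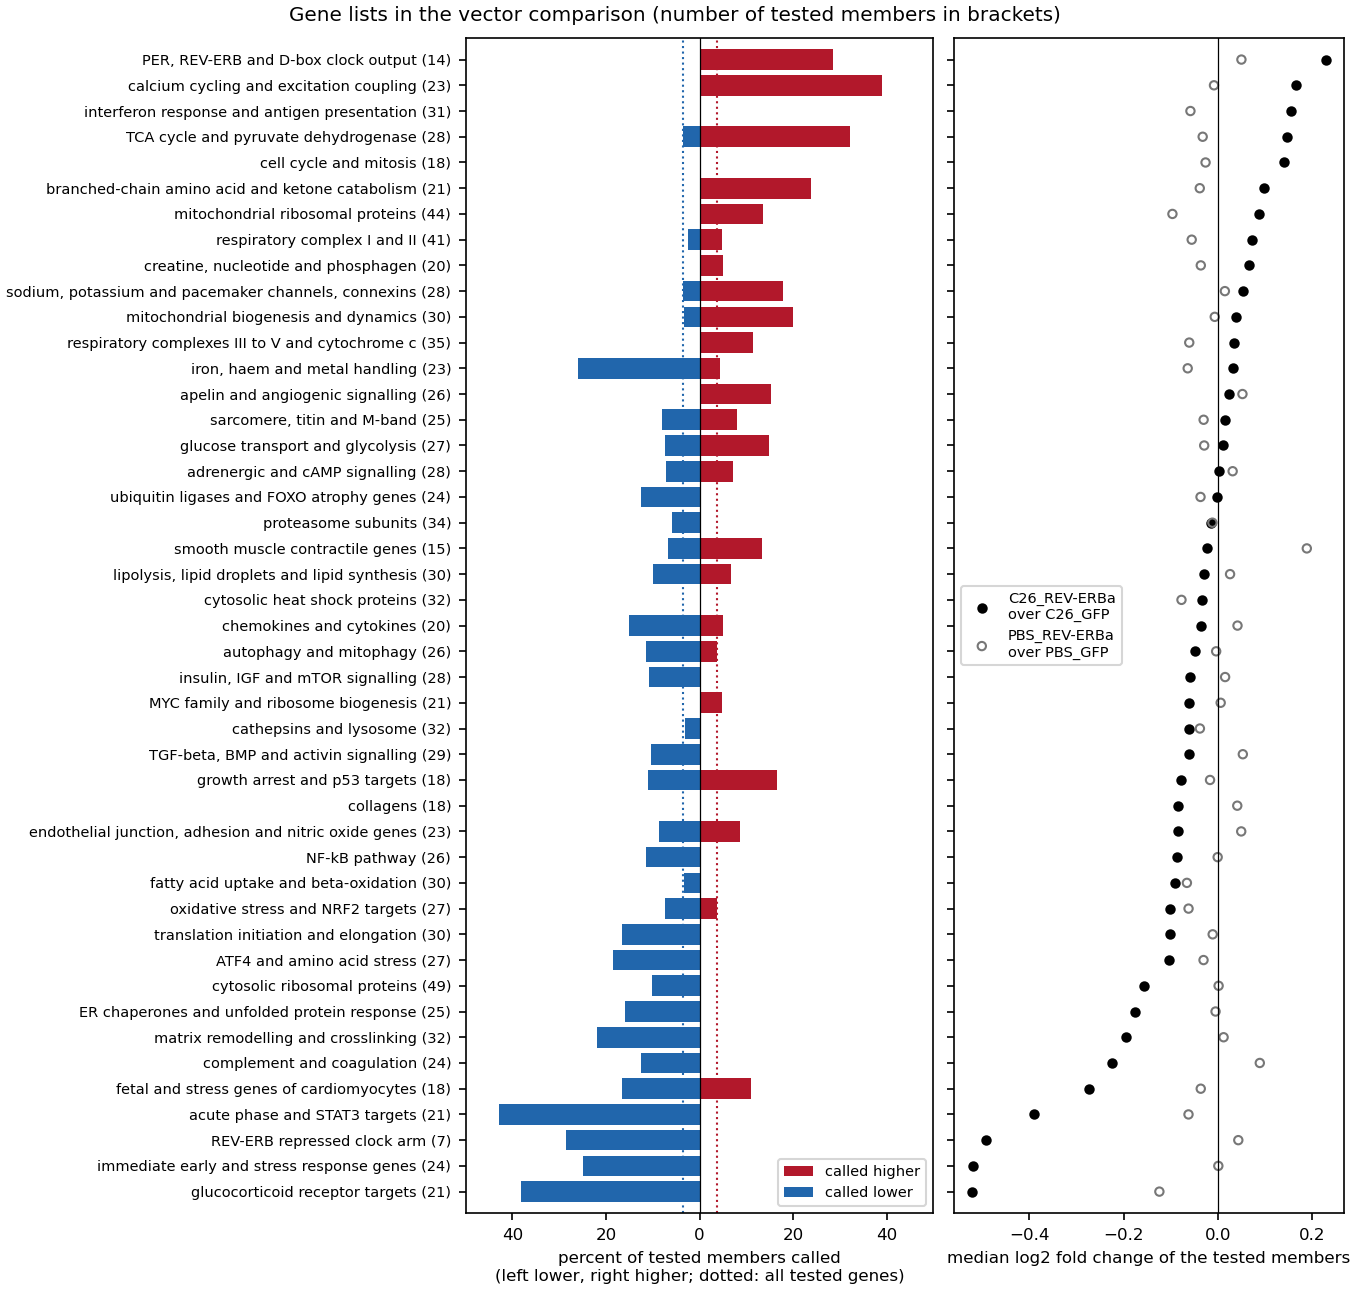
For each of 45 gene lists, the left panel gives the percent of tested members called lower (blue, to the left) and higher (red, to the right), with dotted lines at 3.45% and 3.75%, the shares of all tested genes, and the right panel gives the median log2 difference with a tumour (filled) and without (open). Glucocorticoid, immediate early, REV-ERB repressed and acute phase lists have the lowest medians and clock output, calcium cycling and TCA cycle lists among the highest, while most tumour-free medians lie near 0.

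Across the 45 lists, 1138 different genes were tested and 171 were called (15.03%, against 7.2% of all tested genes). The lists were chosen with results of these data known, so that share is a description. Called genes also differed in length: the median counted length was 3448 bases among the 485 higher, 2594.5 among the 446 lower and 2855 over all tested genes, and what part this plays was not tested.

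The same vector contrast without a tumour, in animals shared with no tumour-bearing group, called no gene among 12928 (0%). There, 530 genes had an unadjusted p under 0.05, DESeq2 also called 0 and limma voom 1. With 4 and 5 hearts the median standard error was 0.13, against 0.08 with a tumour, so smaller differences could be seen in the tumour-bearing groups. The difference between both contrasts, tested as an interaction, also called no gene (0%), with a smallest edgeR adjusted p of 0.278, 1357 genes at an unadjusted p under 0.05, and 9 calls by DESeq2 and 4 by limma voom. No gene is therefore shown by the edgeR test to respond to the vector differently with a tumour. Most named genes were picked by their values with a tumour, so smaller differences without one are partly set by that choice. Among the members described above, the tumour-free differences were -1.45 ± 1.31 in Scd3, -0.70 ± 0.27 in Ccl9 and -0.69 ± 0.37 in Ccl6, and 0.06 ± 0.45 in Apln, 0.15 ± 0.19 in Kit, 0.07 ± 0.20 in Fam81a, -0.12 ± 1.30 in Lcn2, -0.25 ± 0.59 in Serpina3n and -0.09 ± 0.51 in Nr4a1. The smallest unadjusted p of the interaction among named genes belonged to Cd63, at 0.21 ± 0.12 without a tumour and -0.46 ± 0.08 with one (p = 6.46e-05, edgeR adjusted p = 0.278). The list medians without a tumour were -0.06 for acute phase genes, 0.00 for immediate early genes and -0.12 for glucocorticoid targets.

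**Figure D5:**
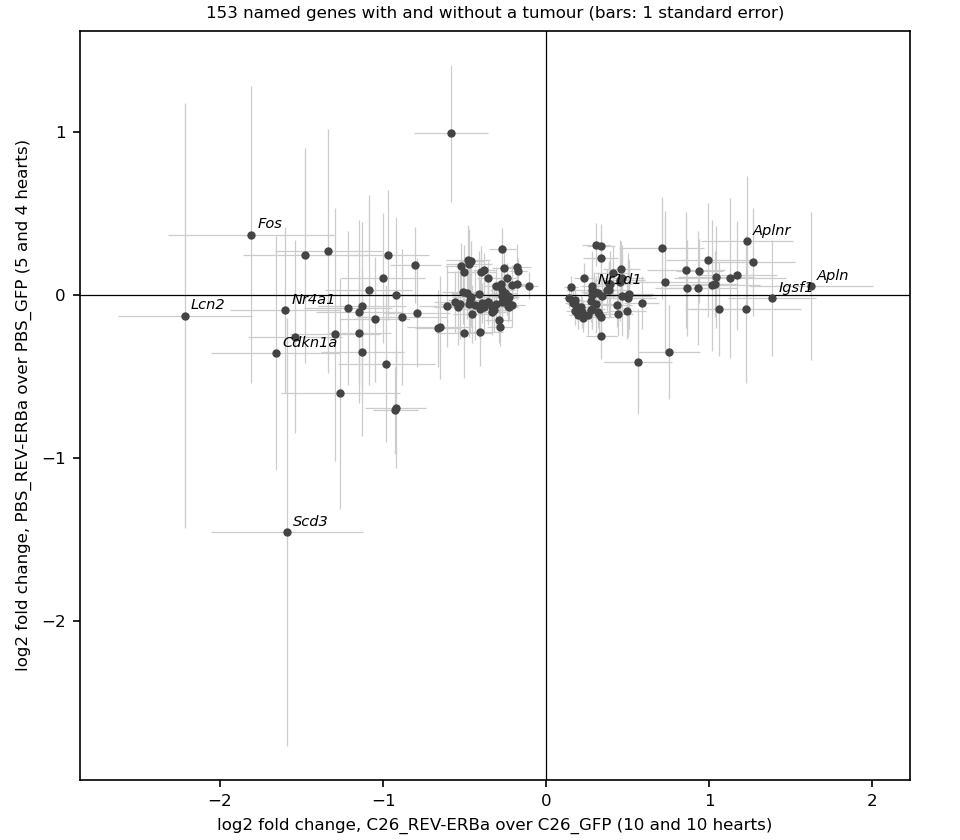
Each of 153 named genes is placed by its log2 difference between the vectors with a tumour (x axis, 10 and 10 hearts) and without (y axis, 5 and 4 hearts), with bars of 1 standard error, on equal scales. Genes spread from Lcn2 at -2.22 to Apln at 1.62 along the x axis, while most y values lie near 0 with wider bars, and Scd3 stands lowest at -1.45. Apart from Nr1d1, the genes were chosen by size or p-value on the x axis, so the wider spread there is partly set by that choice.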

How the data were processed

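Hearts of 29 mice were profiled by RNA sequencing of total RNA without selection of polyadenylated RNA, per the labels' protocols. Raw read counts for each RefSeq gene were deposited by the authors as 1 table, and whole numbers sum to different totals per library. STAR 2.4.2a, DESeq2 1.24.0 and the mm10 build are named, with no role for each, per the submitters' processing notes. No header or label gives the counting tool or its strand setting, so overlapping, antisense and near-identical genes (ribosomal proteins, Mt1 and Mt2, Scd3, the Serpina3 family) are uncertain. The smallest library held 3207497 counts, so 1 CPM is about 3 counts there. Table starts were raised by 1, since 11362 of 20235 matched accessions then had the RefSeq start and 722 had it as given. 1 per-sample column that matched no label was not used.

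Groups follow the labels' vector and treatment, and each library has its own animal number. In R 4.3.3 with edgeR 4.0.16, filterByExpr (10 counts, total 15) chose the tested genes, and libraries were scaled by TMM and fitted by quasi-likelihood with a mean for each of 4 groups over 29 libraries. P-values were adjusted by Benjamini-Hochberg over 12928 genes and called under 0.05. The standard error is the log2 fold change divided by the square root of F. CPM uses the same scaling. All 406 pairs of libraries differed by more than sampling noise, at a chi-square of at least 2.63 per degree of freedom. Simulated data with 200 altered genes were used to test the scripts.

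The rule for named genes took Nr1d1, the 15 largest called rises and the 15 largest falls (mean of at least 5 CPM), 12 genes by smallest p, and 3 members at most from each of 45 lists. Other members are named to account for counts and were chosen after their values were seen. The members and lists were chosen with earlier results of these data known. Of 1216 list entries, 1208 matched by symbol and 6 by another symbol. Alternatives were other scaling and filters, robust fitting, 20 libraries only, a replicate block, depth, atrial or hepatocyte level as covariate, thinning, limma 3.58.1 voom, DESeq2 1.42.0 and leaving out hearts. Leaving out 3 hearts that stand apart and the hepatocyte covariate were added after the data were seen. Results for some genes of the lists are not reported here.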

Additional observations from a re-analysis of the deposited data

Results flagged for a closer look

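Among 153 named genes in the 2 tumour-bearing groups, 26 of 306 gene and group pairs had an extreme heart whose log2 CPM lay farther from its nearest neighbour than 0.466 of the group's range, Dixon's 95% limit for 10 samples. Chance gives such a gap in about 1 of 20 groups. C26_GFP replicate 1 was the highest in Grn (0.524). C26_GFP replicate 2 was the lowest in Serping1 (0.491) and the highest in Ndufs1 (0.468). C26_GFP replicate 6 was the lowest in Plin4 (0.617) and the highest in Dnm1l (0.565) and Rtn4r (0.473). C26_GFP replicate 7 was the lowest in Akap6 (0.572), Bag2 (0.512) and Mycn (0.543) and the highest in Adcy6 (0.586). C26_GFP replicate 9 was the highest in Hlf (0.470). C26_GFP replicate 10 was the lowest in Fam81a (0.634). C26_REV-ERBa replicate 8 was the highest in Tjp1 (0.513). C26_REV-ERBa replicate 9 was the lowest in Bag2 (0.489), Cacna2d1 (0.646), Col8a1 (0.511), Dbp (0.564), Dld (0.481), Mrpl16 (0.616), Ndufs1 (0.560), Nr1d2 (0.530), Oxct1 (0.476) and Per3 (0.543) and the highest in Fhl1 (0.519), Myh7 (0.467) and Xirp1 (0.676). C26_REV-ERBa replicate 9 thus gave 13 of the 26, and it is also the heart with the highest summed adipocyte, mesothelial and lung epithelial markers of the 20. The part of those markers in these gaps was not tested. The numbers in brackets are the gap as a share of the range. No named gene was called in the test of the difference between the vector effects with and without a tumour.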

How the results depend on the processing

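The tumour-bearing count of 931 moved by more than 1.5 times under 4 alternatives beside single hearts. It was 327 with only the 20 tumour-bearing libraries, 462 with libraries thinned to the smallest total and 1772 by limma voom with sample weights. With the replicate number as a block it was 1, Kit. That fit also used only the 20 tumour-bearing libraries, where the count without a block was 327. The labels do not say whether the numbers pair the animals. Same-numbered hearts deviated together by correlations of -0.346 to 0.216, 2 of 10 over 0.1, and 1 library correlated best with its own number. Such correlations show little pairing but cannot exclude a factor shared by number, so whether the block belongs in the fit is not settled. Leaving out 1 heart gave 295 to 1778. The other settings gave 685 to 1317, and upper quartile scaling moved the split to 561 higher and 351 lower, no filter to 298 and 411. The tumour-free count of 0 became 2 without 3 hearts that stand apart and 1 by voom, and the count for the difference of effects 4 by voom and 9 by DESeq2. No result changed direction while called. Over all alternatives, 846 values of single named genes lost their call, 111 gained one and 4659 did neither, and 629 counts of list members moved by over 1.5 times against 991 that did not. The causes were not tested. Depth limits genes near 1 CPM, mostly in C26_REV-ERBa replicate 8 (3376113 counts).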

Other observations

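Some other gene groups of the tumour-bearing comparison are given here as values. Calls took 11.1% of oxidative stress genes, 17.4% of endothelial genes and 5% of creatine and nucleotide genes, against 7.2% of all tested genes. Among 27 oxidative stress and NRF2 targets, Sod2, the superoxide dismutase of mitochondria, was called higher by 0.32 ± 0.09 (edgeR adjusted p = 0.0272), and Gclm, of glutathione synthesis, and Gstm1, a glutathione transferase, lower, with differences of -0.38 ± 0.10 and -0.27 ± 0.08 (edgeR adjusted p = 0.0224 and 0.0389). They passed in 15, 18 and 9 of the 20 fits with 1 heart left out. Among 23 endothelial junction, adhesion and nitric oxide genes, Jam2 and Tjp1, of tight junctions, were higher by 0.29 ± 0.08 and 0.15 ± 0.04 (edgeR adjusted p = 0.0298 and 0.034, 14 and 11 fits), and Icam1 and Sox17 lower. Among 20 creatine and nucleotide genes 1 was called, Ckb, brain creatine kinase (0.51 ± 0.14, edgeR adjusted p = 0.0323, 12 fits).

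Some differences were small in size and even across hearts, and all passed in all 20 fits. Pkia, an inhibitor of protein kinase A, ranged from 289 to 381 CPM (median 329) in C26_GFP and from 349.7 to 469.9 CPM (median 395) in C26_REV-ERBa, 0.28 ± 0.05 (edgeR adjusted p = 0.00655), with 8 of 10 hearts above the C26_GFP range. Osbpl6, an oxysterol-binding protein, differed by 0.59 ± 0.11, and Aup1, of lipid droplets and protein disposal at the endoplasmic reticulum, by -0.36 ± 0.07 (edgeR adjusted p = 0.00655 and 0.00655), with 7 of 10 hearts beyond the C26_GFP range in each. In tumour-free hearts Npas2, a partner of BMAL1 in the clock, had a mean of 1.45 CPM with the GFP vector and 2.88 CPM with the REV-ERBα vector, a difference of 0.99 ± 0.42 that was not called. In tumour-bearing hearts its difference had the opposite sign, -0.59 ± 0.23, also not called, and the test of the difference between them did not pass either (edgeR adjusted p = 0.301).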
